A study of Bos taurus with 6 samples.

Results

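Insulin-like growth factors are small secreted hormones of growth. The ligands IGF1 and IGF2 bind the tyrosine kinase receptor IGF1R, which signals through PI3K and AKT and through RAS and MAP kinase. IGF2R, the mannose 6-phosphate receptor, carries IGF2 into the cell for breakdown, and the binding proteins hold both ligands outside the cell and prolong or limit their action. In muscle these ligands drive the formation and growth of fibres, and IGF2 is best known as a growth factor of the fetus. Described here are all probe sets of a bovine Affymetrix array that carry one of 10 gene symbols: IGF1, IGF2, IGF1R, IGF2R, IGFBP2, IGFBP3, IGFBP4, IGFBP5, IGFBP6 and IGFBP7. They number 19 of 24128 probe sets. Each is shown on its own and, where a gene has several, is called by the GenBank or RefSeq record it was designed from.

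The RNA came from longissimus dorsi, the long back muscle, of 18 male Chinese Red Steppe cattle on a standard diet. The animals were 24 months or 1 month old, and each array held a pool of the RNA of 3 bulls, so that n = 3 pools per age. The 24-month pools are numbered 2, 3 and 4 and the 1-month pools 1, 2 and 3. Pooling hides the spread between single bulls, so a p-value here speaks to pools. The comparison asks how the muscle of grown bulls differs from that of calves. Values are intensities on the linear scale of the authors' normalized table, and the table also says whether a probe set was called present on an array. Changes are log2 differences, 24 months minus 1 month, with standard errors from limma. An array has no read depth, so the number of arrays limits the precision.

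The muscle label held: the muscle genes ACTA1, CKM, MB, TNNT3, TNNT1, MYH7 and MYH1 were called present on all 6 arrays. Of all 13204 probe sets tested, 2513 passed at an adjusted p under 0.05, 14.0% as higher and 4.99% as lower at 24 months (1854 and 659, against 1390 and 956 after median centring). The 24-month pools were the more alike: the median SD of a probe set was 0.117 log2 units among them and 0.259 among the 1-month pools. Actin is probed at both ends of its transcript, and the excess of 3' over 5' signal grows with RNA damage. On the log2 scale this excess was 0.24 ± 0.02 at 24 months and 0.67 ± 0.20 at 1 month (SD, n = 3 pools each, two-sided exact permutation p = 0.1, the smallest p that 3 against 3 arrays allow). In the second deposited table it was -0.22 ± 0.05 at 24 months and -0.24 ± 0.07 at 1 month.

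IGF2 was lower in the muscle of the older bulls on both of its probe sets that were detected, by 4.13-fold and by 3.42-fold. No other tested probe set of the family passed. Of the 19 probe sets 9 were called present on all 6 arrays and tested, for IGF2, IGF2R, IGFBP3, IGFBP4, IGFBP6 and IGFBP7. Called lower were 2 of these 9, or 22.2%, against 4.99% of all tested probe sets, and 0 were called higher. These 2 are the probe sets of 1 gene. At an unadjusted p under 0.05 there were 3, these 2 and the brighter IGF2R probe set. All 9 fitted changes, of 6 genes, were below 0. Their median was -0.80 on the log2 scale, against a median of 0.06 over all tested probe sets. For neither count was the share of all tested probe sets taken, so both only describe the family. The 2 ages did not overlap for 4 of the 9, all lower at 24 months, against 16.1% of all tested probe sets without overlap and lower, and 27.2% without overlap and higher. Of the 10 probe sets left untested, 9 had no present call on any array. IGF1, IGF1R and IGFBP2 had no present call at all.

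**Figure D1:**
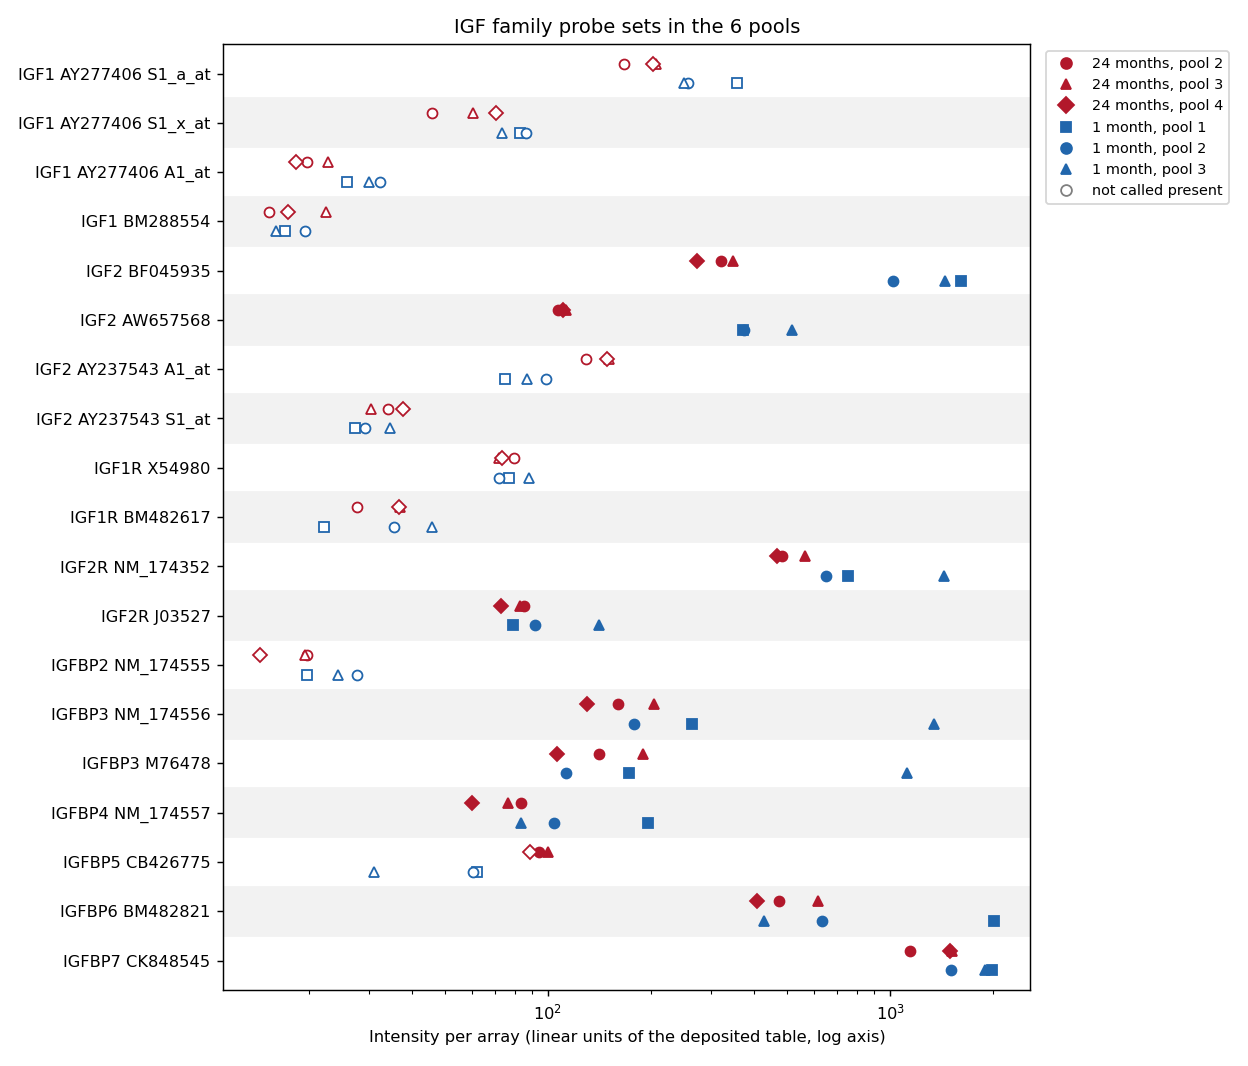
Intensity of each of the 19 IGF family probe sets on each array (log axis), with 24-month pools in red above 1-month pools in blue. Filled symbols are arrays on which the probe set was called present. Both detected IGF2 probe sets separate the ages, and single 1-month pools lie far to the right for IGFBP3 (pool 3) and IGFBP6 (pool 1).

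Among the ligands, the brighter IGF2 probe set (BF045935) had intensities of 320.0, 347.5 and 273.2 in 24-month pools 2, 3 and 4, against 1616.0, 1021.5 and 1448.4 in 1-month pools 1, 2 and 3. Every 1-month pool lay well above every 24-month pool. The change was -2.04 ± 0.20 (95% interval -2.52 to -1.57, limma adjusted p = 0.00376). The second IGF2 probe set (AW657568) had 107.2, 112.7 and 110.7 in the 24-month pools, against 371.9, 373.2 and 516.8 in the 1-month pools. Its 24-month values lay within 1.05-fold of each other. The change was -1.77 ± 0.16 (95% interval -2.15 to -1.40, limma adjusted p = 0.00328), and the intervals of the 2 probe sets overlapped. The 1-month pool with the most IGF2 signal differed between them, pool 1 on the brighter and pool 3 on the other. Both calls held in all 6 fits that left out an array, with changes of -2.24 to -1.91 and of -1.85 to -1.62. In the second deposited table the brighter probe set had 226, 194 and 185 at 24 months, against 944, 692 and 929 at 1 month, and the second had 65.3, 37.5 and 38.5 at 24 months, against 242, 273 and 428 at 1 month. The ages did not overlap there either.

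The other IGF2 probe sets, both designed from accession AY237543, had no present call on any array. One of them, A1_at, read higher with age in the main table, at 129.4, 150.7 and 149.3 in the 24-month pools against 75.1, 98.5 and 86.6 in the 1-month pools. In the second table it leaned the other way and the ages overlapped, at 6.34, 3.30 and 11.1 at 24 months against 6.96, 17.2 and 23.7 at 1 month. Without the filter on detection it passed in the main table (0.63 ± 0.12, limma adjusted p = 0.0194). Its partner, S1_at, had 34.2, 30.4 and 37.7 at 24 months, against 27.3, 29.3 and 34.5 at 1 month, with overlap.

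IGF1, the ligand through which growth hormone acts on many tissues, was called absent on every array with all 4 of its probe sets. The detection p-values that the authors give for the 1-month arrays were 0.0952 to 0.666 for these probe sets. Of the 3 designed from AY277406 the brightest, S1_a_at, read 166.7, 206.6 and 202.9 in the 24-month pools, against 356.6, 256.9 and 249.8 in the 1-month pools. The next, S1_x_at, read 45.8, 60.3 and 70.6 at 24 months, against 82.6, 86.0 and 73.4 at 1 month. A1_at, with 18.4 to 22.7 at 24 months and 25.9 to 32.4 at 1 month, also had the older pools below. On the fourth probe set (BM288554) the ages overlapped, at 15.3, 22.5 and 17.4 at 24 months, and no 1-month pool was above 19.5. In the second table the ages overlapped on all 4, and on the brightest the values were 43.2, 23.3 and 56.5 at 24 months against 55.6, 65.4 and 31.3 at 1 month. No fold is given for IGF1, because it had no present call at either age.

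Among the receptors, IGF1R, the signalling receptor, was not detected on either probe set. The probe set from X54980 read 79.6, 71.9 and 73.5 at 24 months, against 76.9, 72.0 and 88.3 at 1 month, and that from BM482617 read 27.6 to 37.0 at 24 months, against 22.1 to 45.8 at 1 month. The ages overlapped on both.

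IGF2R was present on every array with both probe sets. The brighter (NM_174352) had 483.5, 565.5 and 467.8 in the 24-month pools, against 753.7, 651.0 and 1432.6 in the 1-month pools. The ages did not overlap, and 1-month pool 3 stood 1.90-fold above the next. The change was -0.80 ± 0.29 and did not pass (95% interval -1.48 to -0.12, limma adjusted p = 0.0963). Without 1-month pool 3 it was -0.46. The dimmer (J03527) had 85.1, 83.0 and 72.9 at 24 months, against 78.8, 91.4 and 141.4 at 1 month, again with pool 3 highest. The ages overlapped, and the change was -0.28 ± 0.20 (95% interval -0.77 to 0.20, limma adjusted p = 0.358).

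IGFBP3, the main carrier of IGFs in blood and a product of many tissue cells, had its highest values in a single calf pool. The probe set from NM_174556 had 160.5, 204.6 and 130.1 in the 24-month pools, against 263.1, 178.2 and 1344.8 in the 1-month pools. The one from M76478 had 141.4, 189.4 and 106.3 at 24 months, against 172.7, 112.6 and 1117.2 at 1 month. Pool 3 stood 5.11-fold and 6.47-fold above the next calf pool, and the other calf pools lay among or close to the older ones. A gap as large as the smaller of these was seen in that pool for 0.265% of tested probe sets. The changes were -1.23 ± 0.67 (95% interval -2.83 to 0.36, limma adjusted p = 0.234) and -0.93 ± 0.76 (95% interval -2.73 to 0.86, limma adjusted p = 0.416). Without 1-month pool 3 they were -0.38 and 0.02. In the second table pool 3 was again apart, at 641 and 712, against 65.5 to 87.7 and 57.2 to 77.0 at 24 months and 97.0 to 149 and 74.7 to 109 in the other calf pools.

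IGFBP6, which binds IGF2 in preference to IGF1, stood out in another calf pool. It had 472.9, 613.8 and 409.1 in the 24-month pools, against 2008.3, 630.8 and 427.3 in the 1-month pools. Pool 1 was 3.18-fold above the next, a gap reached in that pool by 1.08% of tested probe sets. The ages overlapped, and the change was -0.72 ± 0.53 (95% interval -1.96 to 0.53, limma adjusted p = 0.366). Without 1-month pool 1 it was -0.08.

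IGFBP4, a binding protein known mainly as an inhibitor of IGF action, was also highest in pool 1. It had 83.4, 76.4 and 60.0 at 24 months, against 196.0, 104.1 and 83.7 at 1 month. The ages were apart by a small margin, between 83.4 and 83.7, and overlapped in the second table. The change was -0.62 ± 0.28 (95% interval -1.29 to 0.05, limma adjusted p = 0.168), and -0.30 without 1-month pool 1.

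IGFBP7, a matrix and vessel wall protein that binds IGFs weakly, varied the least among the calf pools of the tested binding proteins. It had 1141.7, 1521.6 and 1494.6 in the 24-month pools, against 1985.8, 1507.3 and 1889.4 in the 1-month pools. The ages overlapped through 1-month pool 2. The change was -0.37 ± 0.17 (95% interval -0.78 to 0.04, limma adjusted p = 0.177). In the second table the ages did not overlap, at 842, 796 and 678 at 24 months against 875, 850 and 898 at 1 month. The change there was smaller, at -0.08 ± 0.19 with quantile normalization (limma adjusted p = 0.808).

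IGFBP5, a binding protein that differentiating muscle cells make, was the 1 member detected at 24 months and not at 1 month. It had 94.1, 100.1 and 88.6 in the 24-month pools, with present calls on 2 arrays and a marginal call on the other, against 62.2, 60.5 and 31.0 in the 1-month pools, all called absent. The ages did not overlap, and the estimate was 1.68-fold higher at 24 months, which is not a minimum. With 2 present calls it fell short of the 3 that the test required. Without that filter the change was 0.75 ± 0.20 and missed the threshold (limma adjusted p = 0.0522). In the second table it had 9.57, 8.77 and 9.30 at 24 months, against 0.689, 2.48 and 0.795 at 1 month. All of these values lay below the array medians of that table, which were 15.4 to 21.2. Of the 10 untested probe sets 6 had ages apart in the main table, and only that of IGFBP5 had them apart in both. The share of all untested probe sets was not taken, so these counts only describe the family. The neighbour of IGFBP5 in the RefSeq gene table, IGFBP2, with 0 protein-coding genes between them, was not detected on any array. IGFBP2 read 19.8, 19.5 and 14.4 at 24 months, against 19.8, 27.6 and 24.3 at 1 month.

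**Figure D2:**
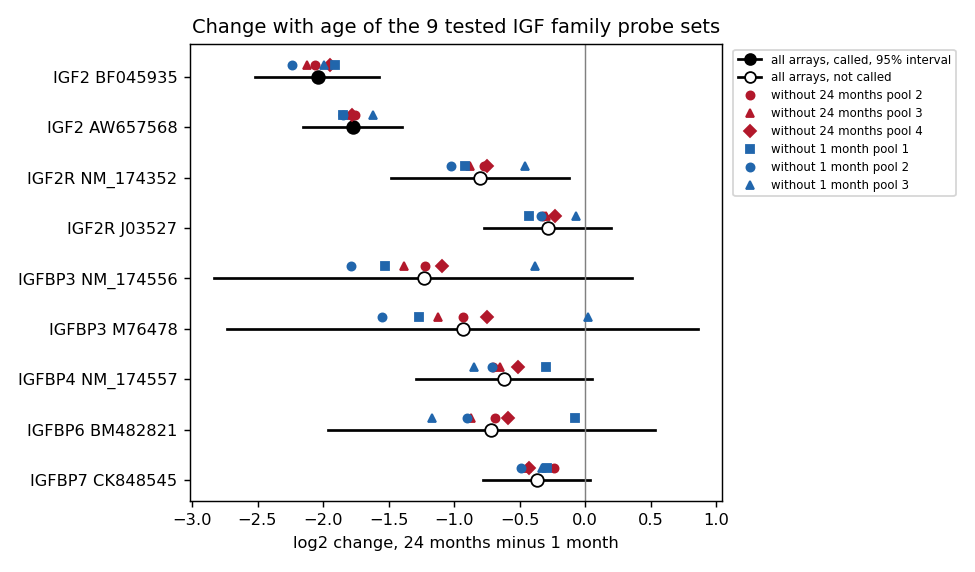
Fitted log2 change, 24 months minus 1 month, of the 9 tested IGF family probe sets with 95% intervals (filled circles passed, open circles did not), and above each the change when 1 pool is left out (red, a 24-month pool; blue, a 1-month pool). Both IGF2 estimates stay between -2.24 and -1.62, while those of IGFBP3 move to -0.38 and 0.02 without 1-month pool 3.

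Some markers of other cells of muscle tissue were highest in the same single pools. In bulk tissue, fewer cells of a type and less RNA per cell cannot be told apart. Each sum covers every listed marker on the array, detected or not. Of 6 endothelial markers 4 were present on at least 3 arrays (VWF and KDR on 0), and the summed intensity of all 6 was 783 to 858 at 24 months and 1124, 1079 and 1653 in 1-month pools 1, 2 and 3. All 6 pericyte and smooth muscle markers were present, with a sum of 1356 to 1764 at 24 months and 1237, 1749 and 3217 at 1 month. Both sums were thus highest in 1-month pool 3, the pool with the most IGFBP3 and IGF2R. In the pericyte and smooth muscle list this came from ACTA2, MYH11 and TAGLN. RGS5 was highest in 1-month pool 2 (497.6, against 434.8 in pool 3), and PDGFRB and CNN1 were each highest in a 24-month pool. All 6 fibroblast markers were present and highest in 1-month pool 1, with a sum of 5593 to 7314 at 24 months and 23751, 6717 and 8137 at 1 month. That of 5 adipocyte markers, 3 of them present and LEP on 0 arrays, was 893 to 1222 at 24 months and 2467, 287 and 665 at 1 month. That pool also had the most IGFBP6 and IGFBP4. Its adipocyte sum was mostly FABP4, a fatty acid carrier, with 634.4, 592.1 and 434.9 at 24 months, against 2020.9, 68.1 and 408.0 at 1 month. CIDEA and CFD were lower in each 1-month pool than in any 24-month pool, and ADIPOQ in 1-month pool 1 lay within the 24-month range. The same pool had the highest sum of 4 leukocyte markers (CSF1R on 0 arrays): 439 to 513 at 24 months, against 597, 379 and 363 at 1 month. The 5 erythroid markers (ALAS2 on 0 arrays) summed to 209 to 248 at 24 months and to 3748, 4355 and 377 at 1 month, lowest among calf pools in pool 3. The 1-month sums came mostly from HBB (2403.3, 2404.9 and 132.5) and HBG (1268.7, 1857.6 and 174.4). AHSP went the other way, with 34.6, 32.1 and 42.3 at 24 months against 24.0, 25.0 and 18.0 at 1 month, and HBA overlapped between the ages. The 4 satellite cell markers, 2 of them present, summed to 393 to 411 at 24 months and 355, 353 and 224 at 1 month. Of the endothelial markers PECAM1 and TEK were called lower at 24 months, of the pericyte and smooth muscle markers RGS5, and of the fibroblast markers 0 of 6 in either direction. Of 3 adipocyte markers tested CIDEA and CFD were called higher, and of 3 erythroid markers tested HBB was called lower. Of the leukocyte markers 0 of 3 tested and of the satellite cell markers 0 of 2 were called. Of 7 skeletal muscle fibre markers 4 were called higher (MB, TNNT3, TNNT1 and MYH7), and their list summed to 64435 to 66770 at 24 months and 48554, 47958 and 47193 at 1 month. The part of these cells in the values of the binding proteins and IGF2R was not tested. The actin ratio was 0.22 to 0.26 in the 24-month pools and 0.85, 0.69 and 0.46 in 1-month pools 1, 2 and 3, so it separated the ages. With it as a covariate the IGF2R probe set from NM_174352 gave -1.87 ± 0.40 (limma adjusted p = 0.0450) and the IGFBP3 probe set from NM_174556 -3.89 ± 0.87 (0.0482), while IGFBP4 (0.50) and IGFBP6 (1.48) turned in sign without a call. Both IGF2 probe sets passed with it. As the covariate largely follows age, its slope rests mainly on the spread among the calf pools. Pool 3, with the most IGFBP3 and IGF2R, had the lowest ratio of these. The larger changes of IGFBP3 and IGF2R with the covariate cannot be told apart from the effect of that pool.

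**Figure D3:**
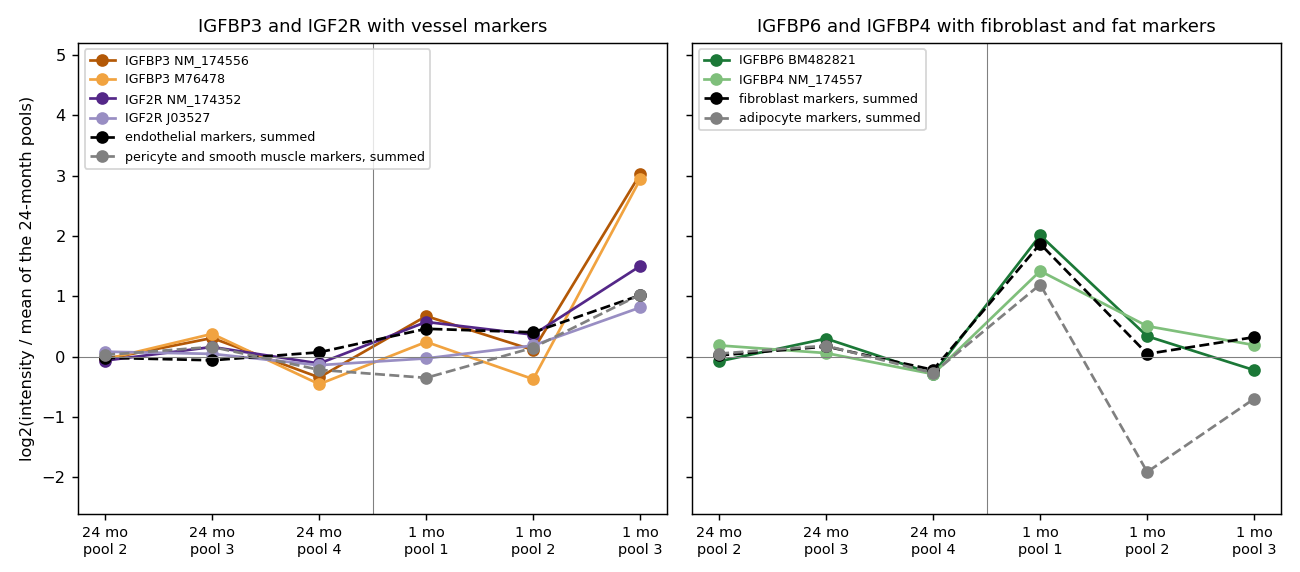
Intensity in each pool as log2 of its ratio to the mean of the 24-month pools, for IGFBP3 and IGF2R with endothelial and pericyte and smooth muscle markers (left) and for IGFBP6 and IGFBP4 with fibroblast and adipocyte markers (right). Solid lines are family probe sets and dashed lines are summed markers. The left set peaks in 1-month pool 3, the pericyte and smooth muscle sum through ACTA2, MYH11 and TAGLN. The right set peaks in 1-month pool 1, the adipocyte sum through FABP4.

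The genes whose profile over the 6 pools lay closest to that of the brighter IGF2 probe set were PPIA, SSR4, PEG10, MGP and PLP2. Likeness was the mean absolute difference of log2 values, each centred on its own mean, and was 0.19 for the first 3 genes and 0.20 for the others. The second IGF2 probe set lay at 0.19. Since the genes were chosen by this likeness, their falls with age follow from the choice. PPIA, cyclophilin A, had 451.1, 595.6 and 454.8 at 24 months, against 1702.3, 1648.9 and 2260.7 at 1 month (-1.87 ± 0.18). SSR4, a subunit of the translocon-associated complex of secretory protein synthesis, changed by -1.67 ± 0.17. PEG10 is a paternally expressed imprinted gene, as IGF2 is in many mammals. It had 45.0, 38.1 and 37.9 at 24 months with no present call, against 290.0, 258.1 and 207.1 at 1 month (-2.24 ± 0.16, or 4.72-fold lower). MGP, an inhibitor of calcification, changed by -2.38 ± 0.28 and PLP2, a membrane protein of the endoplasmic reticulum, by -1.70 ± 0.26.

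Around the family, 76 genes of release, control and signalling were listed from textbook knowledge, with earlier results of these data known, and 34 of them had a tested probe set. On the brightest one per gene 11 passed as higher and 3 as lower at 24 months, or 41.2%, and 20 did not pass. Over the brightest probe sets of all 6423 named genes 11.3% passed as higher and 5.73% as lower. The median change of the 34 genes was 0.38. Since some of the listed genes were known to change, this count is a description.

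**Figure D4:**
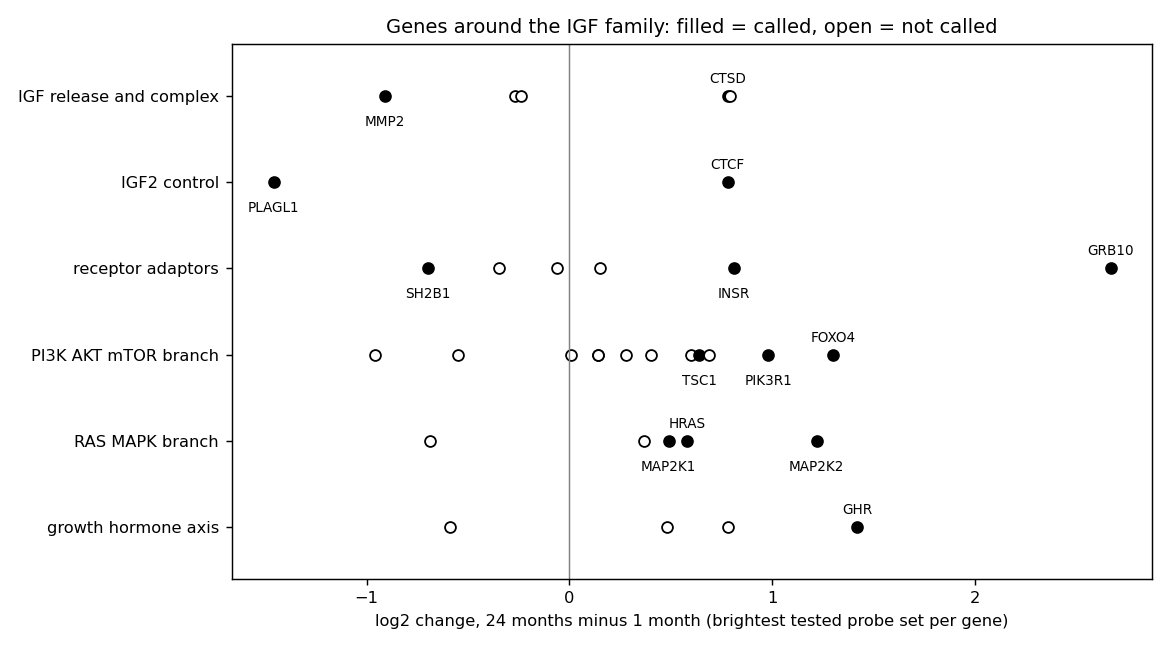
Log2 change, 24 months minus 1 month, of the brightest tested probe set of 34 genes around the IGF family, by list. Filled circles passed and are named, open circles did not; GRB10 is farthest to the right at 2.67 and PLAGL1 farthest to the left at -1.46.

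Of 5 tested genes that free or hold IGFs, 1 passed in each direction. CTSD, the lysosomal protease cathepsin D, had 443.7, 445.6 and 426.0 at 24 months, against 283.8, 219.2 and 245.7 at 1 month, a rise of 0.78 ± 0.13 (limma adjusted p = 0.0122). MMP2, a matrix protease, had 124.8, 163.7 and 149.1 at 24 months, against 389.4, 210.6 and 286.5 at 1 month, a fall (-0.91 ± 0.23, limma adjusted p = 0.0350). The protease PAPPA, which cuts IGFBP4, and IGFALS, the third part of the circulating complex, had no tested probe set. Both tested genes of the list for IGF2 control passed. PLAGL1, an imprinted zinc finger factor that can activate IGF2 in the mouse, had 75.2, 47.7 and 73.8 at 24 months, against 270.4, 134.9 and 238.0 at 1 month (-1.46 ± 0.27, limma adjusted p = 0.0152). CTCF, the insulator protein that binds the imprinting control region between IGF2 and H19 in mouse and human, had 557.8, 483.0 and 467.1 at 24 months, against 378.4, 273.4 and 225.6 at 1 month (0.78 ± 0.20, limma adjusted p = 0.0383).

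At the receptor, GRB10, an adaptor that dampens insulin and IGF1 receptors, had 408.7, 412.6 and 438.7 at 24 months, against 53.0, 58.7 and 46.3 at 1 month with no present call. The fitted change was 2.67 ± 0.13 (limma adjusted p = 0.000885), or 6.36-fold higher. It was 2.20 with an offset of 50 and 1.97 in the second table with quantile normalization. INSR, the insulin receptor, was dim, with 33.2, 49.3 and 36.2 at 24 months (2 present calls), against 14.2, 9.4 and 24.8 at 1 month (1 present call). It rose by 0.81 ± 0.21 (limma adjusted p = 0.0390), but by 0.44 and without a call with an offset of 50 (limma adjusted p = 0.0569). Of its 5 probe sets 2 were tested, and the other tested one gave 1.09. SH2B1, an adaptor that aids receptor signalling, fell by 0.70 on the log2 scale (SE 0.14, limma adjusted p = 0.0202). Of the 6 adaptor genes tested 3 did not pass. In the PI3K branch 3 of 12 passed, all as higher. FOXO4, a transcription factor that AKT holds out of the nucleus, had 425.8, 367.0 and 321.2 at 24 months, against 149.9, 145.4 and 125.7 at 1 month (1.30 ± 0.15, limma adjusted p = 0.00448). PIK3R1, the regulatory subunit of PI3 kinase, rose by 0.98 ± 0.13 and TSC1, a brake on mTOR, by 0.64 ± 0.15. AKT1 gave -0.55 ± 0.16 and did not pass (limma adjusted p = 0.0516).

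In the MAP kinase branch 3 of 5 passed, all as higher. MAP2K2, a kinase of ERK, had 501.8, 546.3 and 448.8 at 24 months, against 198.4, 226.9 and 190.3 at 1 month (1.22 ± 0.14, limma adjusted p = 0.00432). Of its 4 probe sets 2 were tested, and the other tested one gave -0.27. The related MAP2K1 gave 0.49 ± 0.12 and passed (limma adjusted p = 0.0348), but kept the call in only 4 of 12 alternatives (adjusted p = 0.106 with quantile normalization and 0.0712 with median centring). HRAS gave 0.58 ± 0.13 and passed (limma adjusted p = 0.0281), but kept the call in only 5 of 12 (0.0751 and 0.0520), with the opposite sign in the second table (-0.31 with quantile normalization, not called). Of 4 genes of the growth hormone axis 1 passed, the receptor GHR, with 273.0, 292.8 and 377.0 at 24 months against 81.1, 101.0 and 145.8 at 1 month (1.42 ± 0.22, limma adjusted p = 0.00909). GHR has 11 probe sets, of which 2 were tested, and the other tested one gave 0.28. The second table also ended the calls of INSR, SH2B1 and TSC1 (limma adjusted p = 0.308, 0.415 and 0.177 with quantile normalization), and median centring that of INSR (0.0504). With the actin covariate 10 of the 14 genes called lost their call, and CTCF, GRB10, FOXO4 and MAP2K2 kept it. Of the 14, GRB10, FOXO4, PIK3R1 and MAP2K2 passed in all 6 fits that left out an array. GHR lost its call without 24-month pool 4 (adjusted p = 0.0507). The other 9 lost theirs without each 24-month pool (0.0550 to 0.146), as did CTCF, INSR and TSC1 without 1-month pool 2, and INSR without 1-month pool 1.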

How the data were processed

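Total RNA was extracted with Trizol, purified on RNeasy columns and labelled with biotin by the Affymetrix procedure, per the labels' protocols. The main table, named for dChip, holds linear intensity values that the authors normalized before they deposited them, with a present, marginal or absent call for each array and, for the 1-month arrays, a deposited detection p-value. For the software version, probe model, normalization and call method nothing is given in the sources used here. The authors also deposited linear intensity values of the same arrays in a second table, whose scale is unknown.

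Columns were matched to samples by title or accession. Probe sets were named from the platform annotation (13292 with 1 gene symbol, 86 with several), and all 10 symbols matched the RefSeq gene table of ARS-UCD2.0 by gene ID. The array medians differed by 0.0372 on the log2 scale, under the limit of 0.2 for a further normalization. Probe sets other than the 112 controls were tested on log2(intensity + 16) if present on at least 3 of 6 arrays (13204; 10812 were left out), with limma 3.58.1 (lmFit, eBayes) in R 4.3.3, two-sided, Benjamini-Hochberg adjusted over all of them and called at 0.05. The offset makes fold changes of dim probe sets too small. For a gene with present calls at 1 age, the fold sets the brighter age's mean against the higher of the dim value and the lowest present signal on each array. For IGFBP5, GRB10 and PEG10 the dim value was the higher, so the fold is the fitted estimate and not a minimum. The fit was tested on simulated data.

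The members and gene lists were chosen with earlier results of these data known. All member probe sets are named, the pathway genes whose brightest tested probe set passed, and the 5 genes closest to IGF2; AKT1, PAPPA and IGFALS were named after their values were seen. Alternatives were quantile normalization, median centring, offsets of 1 and 50, no filter, presence on all 6 arrays, the second table, a replicate block, trend and robust variances, an actin covariate, each array left out, the probe set with the smallest p per gene and, added after seeing the data, weights per age. No probe or transcript sequence was used here.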

Additional observations from a re-analysis of the deposited data

How the results depend on the processing

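Both IGF2 probe sets passed as lower under all 12 alternatives and in all 6 fits that left out an array, with changes of -2.37 to -1.54 and adjusted p up to 0.0464. The count of family calls was 2 in each of the 6 fits that left out an array and 4 with the actin covariate, which added IGF2R (-1.87 ± 0.40, adjusted p = 0.0450) and IGFBP3 (-3.89 ± 0.87, adjusted p = 0.0482). The actin ratio separated the ages, so these added calls rest mainly on the spread among the calf pools. The count was 3 without the filter, through an IGF2 probe set that was not detected at either age. Estimates of members that did not pass turned in sign for the IGFBP3 probe set from M76478 without 1-month replicate 3 (its range over the 6 fits was -1.55 to 0.02), IGFBP4 with the actin covariate (0.50), and IGFBP6 with the actin covariate (1.48) and the replicate block (0.05). HRAS turned in the second table (-0.31 with quantile normalization, -0.41 without), and neither value was called. The replicate block draws the age change from replicates 2 and 3 only, and IGFBP6 gave -0.08 when 1-month replicate 1 was left out. Beyond this the cause of these changes was not tested.

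Over all probe sets the 2513 calls became 1641 and 1169 in the second table (with and without quantile normalization), 996 with the actin covariate and 129 with the replicate block, and 526 to 3476 when an array was left out, the lowest without 24-month replicate 4 (689 and 586 without replicates 2 and 3). The share of rises among calls, 73.8%, was 64.8% with quantile normalization and 59.2% with median centring. The 14 pathway calls became 9 with presence on all 6 arrays, where fewer genes were tested, 8 in the second table without normalization, 6 with the actin covariate and 1 with the replicate block, and 4 to 20 when an array was left out. The actin ratio differed by -0.42 between the ages in the main table and by 0.01 in the second.

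The ages share replicate numbers 2 and 3, and nothing in the labels says that a number marks a shared batch. The block thus rests on the numbers alone. Deviations of same-numbered arrays correlated at -0.183 and 0.039 across probe sets, and those of differently numbered arrays at -0.014 and 0.061. As these are deviations from means of 3 arrays, so few correlations cannot decide whether a number marks a batch. Every pathway call but that of GRB10 was lost with the replicate block.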
